A study of Mus musculus with 15 samples.

Results

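Transcripts that the GENCODE M21 annotation marks as targets of nonsense-mediated decay were examined in CD8+ T cells by bulk RNA sequencing. A transcript was a member when it held 50 or more estimated counts summed over 15 libraries and lay in a protein-coding gene with a mean of 100 or more counts per library. Of 7186 decay-annotated transcripts in the deposited transcript table, 2523 reached the count minimum and 2297, in 1717 genes, met the whole rule. They stood among 141862 annotated transcripts in all, of which 48929 held 50 or more counts. Members were thus chosen by the counts of the transcript and of its gene over every library, so those levels are description only, and what is compared below is how much of its gene's counts a transcript took up in each library.

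The cells came from OT-I mice (OT-1 Tg C57BL/6J), whose transgenic T cell receptor recognises the ovalbumin peptide SIINFEKL, and which per the study's methods also lacked Rag1 or Rag2, so that their T cells are essentially of 1 specificity. Per the methods mice of both sexes were used. Naive libraries were made from OT-I mice whose cells were not transferred. For Ag, OT-I cells were transferred into C57BL/6J recipients that were injected with the peptide and a control rat IgG. For Ag+Costim, recipients received the peptide with agonist antibodies to OX40 (CD134) and 41BB (CD137), both costimulatory receptors of activated T cells. Spleen and lymph nodes were taken at day 4 per the labels, and CD8+ cells were sorted. Each group had 5 libraries of single 50-base reads. The labels do not tie libraries to animals, while the study describes the libraries of a group as individual biological replicates from different mice. As each library is a bulk sample, fewer cells of a kind and less RNA per cell cannot be told apart.

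Nonsense-mediated decay is a surveillance pathway that destroys mRNAs whose reading frame stops too early. During splicing an exon junction complex is left near each junction, and when a ribosome terminates well upstream of such a complex, UPF1 is phosphorylated by SMG1 and the mRNA is cut by SMG6 or passed with the help of SMG5 to decapping and exonuclease enzymes. Splicing factors use the pathway on their own messages: many SR protein and hnRNP genes contain a "poison" exon or a regulated 3' end intron whose splicing turns the message into a decay substrate, which limits the factor's level. A steady-state count of such a transcript reflects both how often it is made and how fast it is removed.

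Total counts per library ranged from 4865952 in Ag 3 to 25280667 in Naive 3. Ag 3 also had the lowest percentage under the sequencing core's heading RiP (15.4%, against 43.8 to 78.3% in the other 14 libraries) and the largest summed level of 7 erythroid markers (1309 CPM, that is, counts scaled to the same library total, against 4.39 to 152), and Naive 5 the largest summed level of 8 myeloid markers (1014, against 12.8 to 188). The 8 CD8 T cell markers were abundant in every library, at 5970 to 10857 CPM summed. The 4 CD4 T cell markers summed to 3.93 to 33.7 and the 8 B cell markers to 506 to 1439, mostly Ighm, while Pax5 had at most 37 counts in a library. The part of such other cells in the results below was not tested, and counts of calls are also given without both Ag 3 and Naive 5, in the account of the alternatives where not beside the result. All Ag libraries were sequenced on lane 2 and all Naive libraries on lane 3, so lane and the difference of Ag from Naive cannot be told apart, whereas lane 2 also carried Ag+Costim 1 to 3, and lane 3 carried the remaining pair of that group.

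A stop codon was annotated for 2296 of the 2297 members, and in 2288 it lay more than 50 bases before the last exon junction, with a median distance of 423.5 bases. The codon was TGA in 1279 members (55.7%), TAA in 535 (23.3%) and TAG in 482. Set against the main coding transcript of the same gene, the stop of 1171 members (51.0%) fell on bases that the coding transcript translates in another frame, as after a skipped exon or a shifted splice site. In 491 members (21.4%) the stop lay in a separate exon placed within an intron of the coding transcript, which is the layout of a poison exon. A further 364 (15.8%) had an exon extended into an intron, 120 (5.22%) kept the normal stop and gained a junction behind it, and the rest were spread over rarer layouts.

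The following stretches end at the premature stop, which is set in capitals, and begin where its exon begins or 117 bases before the stop, whichever is nearer. They are shown because the stop at their end is what makes each transcript a decay candidate, and they belong to members described below. Sequence and positions are those of GENCODE M21 on GRCm38, on the strand named. The first 7 lie in separate exons within an intron.
Srsf3-201, chr17:29039454-29039487, plus strand: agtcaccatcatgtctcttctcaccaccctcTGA
Srsf7-203, chr17:80205054-80205081, minus strand: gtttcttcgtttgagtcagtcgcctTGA
Tra2b-206, chr16:22259181-22259261, minus strand: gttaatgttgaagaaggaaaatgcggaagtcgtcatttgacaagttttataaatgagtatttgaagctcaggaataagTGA
Tra2a-202, chr6:49252965-49253084, minus strand: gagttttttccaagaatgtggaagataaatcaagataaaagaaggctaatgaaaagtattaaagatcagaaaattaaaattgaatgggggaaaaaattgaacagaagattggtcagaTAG
Hnrnpll-203, chr17:80044976-80045022, minus strand: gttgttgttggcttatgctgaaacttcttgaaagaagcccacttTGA
Rps19-205, chr7:24886107-24886153, plus strand: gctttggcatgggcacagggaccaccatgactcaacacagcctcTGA
Il4ra-205, chr7:125571934-125571953, plus strand: caagtaatgaaaatctgTGA
The next lie in an exon that runs on into an intron.
Ddx5-208, chr11:106783954-106784018, minus strand: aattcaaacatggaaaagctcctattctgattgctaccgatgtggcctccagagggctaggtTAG
Vars2-208, chr17:35658012-35658131, minus strand: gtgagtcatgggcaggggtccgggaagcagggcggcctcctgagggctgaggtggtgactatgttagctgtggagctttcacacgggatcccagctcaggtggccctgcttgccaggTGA
In the last 3 the stop arises within coding sequence that is read in another frame.
Pfn1-204, chr11:70652919-70652954, minus strand: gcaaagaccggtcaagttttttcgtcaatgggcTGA
Trat1-201, chr16:48742214-48742260, minus strand: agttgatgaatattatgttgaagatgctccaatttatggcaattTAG
Coro1b-212, chr19:4150440-4150532, plus strand: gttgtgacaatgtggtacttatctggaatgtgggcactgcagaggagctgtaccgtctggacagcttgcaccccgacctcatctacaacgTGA
The exon of Srsf3-201 is 456 bases long (chr17:29039454-29039909), that of Srsf7-203 460 bases (chr17:80204622-80205081), that of Tra2b-206 276 bases (chr16:22258986-22259261) and that of Tra2a-202 306 bases (chr6:49252803-49253108). In all 4 genes, which encode splicing factors of the SR family, the stop stands 548 to 1015 bases before the last junction of the transcript.

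Most members were a small part of their gene. The mean share over 15 libraries had a median of 3.55% (quartiles 1.15 and 11.2%), 513 members stayed under 1%, 628 reached 10% and 89 exceeded 50%. Summed counts had a median of 375. Of the 1717 genes, 1318 had 1 member and 399 had several, up to 11. The 10 members with the highest mean share all stood at 100%, and their genes have no transcript annotated as protein coding: Gm20716-201, Gm20605-201, Gm37988-201, Gm28043-201, AC124502.3-201, Gm20683-201, Ggnbp1-210, Gm49392-201, Gm42688-201 and Sssca1-206. For them the share carries no comparison.

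The 10 members with the most counts included Gimap4-206, of a GTPase gene of lymphocyte survival, Ddx5-208, of a DEAD-box RNA helicase, Srsf3-201, of an SR splicing factor, Pfn1-204, of the actin-binding protein profilin, and Cenpa-202, of the centromeric histone H3 variant, together with Rps19-205, B4galnt1-202, Smc4-207 and Lars2-209. Gimap4-206 took 35.3, 30.9, 33.1, 31.02 and 26.1% of its gene's counts in Naive 1 to 5, 29.9, 24.4, 30.2, 25.1 and 24.9% in Ag 1 to 5, and 26.7, 15.9, 27.4, 22.6 and 23.3% in Ag+Costim 1 to 5. Its share thus varied little within groups, and the Ag+Costim and Naive ranges met at their edges. Lars2-209, of the mitochondrial leucyl-tRNA synthetase, held the most counts of any member (168171), and nearly all came from 1 library: its share was 96.9% in Naive 3, 9.72% in Naive 1 and 0 in the other 13.

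That pattern recurred. Estimated counts for transcripts of 1 gene come from dividing reads that they share, and 759 of 2297 members had a share of 0 in at least 1 library and of 20% or more in another. Among the 887 members with 50 or more bases found in no other transcript of the gene, 209 (23.6%) showed it, against 408 of 1027 (39.7%) that had only a junction or fewer bases of their own and 142 of 383 (37.1%) that had neither. A total of 515 members had a count in every library, and 610 were at 0 in 8 or more. Library by library, 418 to 1060 members were at 0, with the most in Ag 3.

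Summed over all members, decay-annotated transcripts made up 12.4, 10.8, 15.1, 11.8 and 8.51% of the counts of their host genes in Naive 1 to 5, 10.6, 8.69, 7.72, 10.4 and 8.27% in Ag 1 to 5, and 8.86, 8.45, 8.30, 7.79 and 8.07% in Ag+Costim 1 to 5. The means were 11.7 ± 2.40, 9.13 ± 1.29 and 8.29 ± 0.404% (SD, n = 5). All Ag+Costim libraries lay within the Ag range, and 4 of 5 Naive libraries lay above every Ag+Costim and every Ag library, while Naive 5 did not. Because members were chosen with results known, no test is given for these sums. The choice was also uneven: 220 members met the count minimum only through Naive, 66 only through Ag and 69 only through Ag+Costim. That alone can make the sums lower outside Naive. Without Lars2 the Naive values were 12.6, 11.1, 12.2, 12.5 and 8.84% and the group means 11.4 ± 1.58, 9.46 ± 1.54 and 8.48 ± 0.409%.

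**Figure D1:**
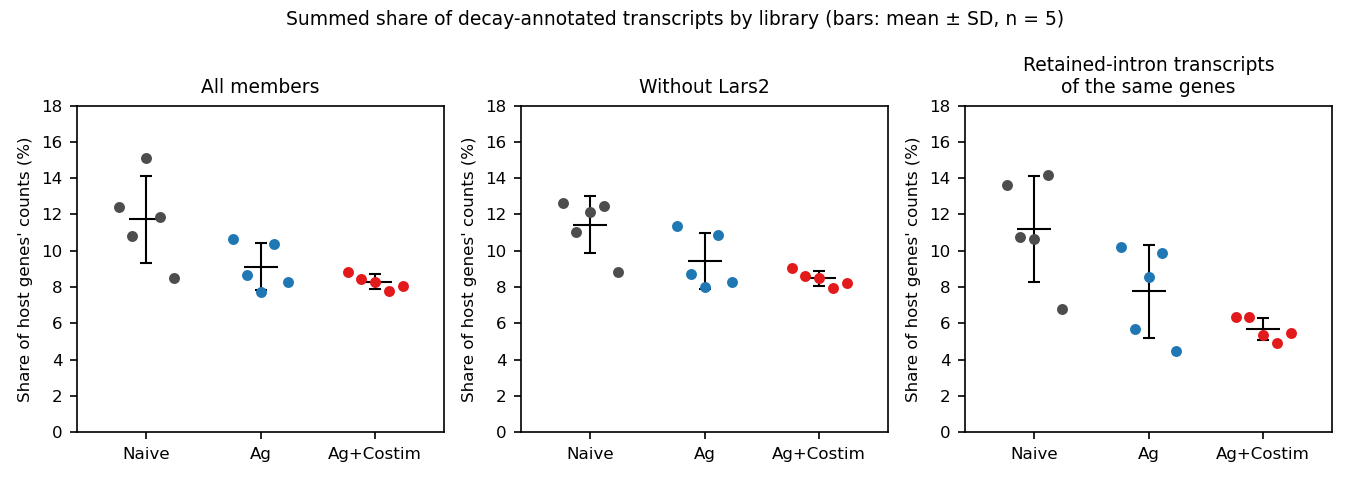
Share of the host genes' estimated counts (%, vertical axis) held by all decay-annotated members, by members without Lars2, and by retained-intron transcripts of the same genes, with 1 dot per library and the mean ± SD of 5 libraries as bars. Naive 3 stands highest at 15.1% in the first panel and at 12.2% once Lars2 is left out, and in each panel the Ag+Costim libraries lie closest together.

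Retained-intron transcripts of the same 1717 genes followed a similar order, at 13.6, 10.7, 10.7, 14.2 and 6.80% of the genes' counts in Naive, 10.2, 5.68, 8.57, 9.91 and 4.50% in Ag, and 6.34, 6.33, 5.39, 4.95 and 5.45% in Ag+Costim. Every Ag+Costim library was below every Naive library in this measure. Protein-coding transcripts made up most of the rest, 72.6 to 83.7% in Naive, 77.9 to 86.2% in Ag and 83.8 to 86.4% in Ag+Costim. The RiP percentage differed between the same groups, at 44.4 to 62.7% in Naive and 69.3 to 74.3% in Ag+Costim. In Ag+Costim, RiP of 69.3, 70.7, 71.9, 72.2 and 74.3% went with retained-intron shares of 6.33, 6.34, 5.45, 5.39 and 4.95%. In Ag 1, 4, 2 and 5, RiP of 43.8, 55.0, 72.3 and 78.3% went with 10.2, 9.91, 5.68 and 4.50%. Ag 3, at 15.4%, lay below Ag 1 and Ag 4 in that share and had the lowest decay-annotated share of all 15. In Naive, RiP of 44.4, 47.8, 48.3, 59.5 and 62.7% went with retained-intron shares of 10.7, 14.2, 13.6, 6.80 and 10.7%. Naive 3, with the highest RiP of Naive, had the highest decay-annotated share. The part of RiP in the result was not tested.

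The comparison of Ag+Costim with Ag asks what costimulation added to antigen. A transcript was called when its share of the gene passed an adjusted p of 0.05 in edgeR's quasi-likelihood usage test and its mean share differed by 10 percentage points or more. Of 2284 members tested, 11 rose and 19 fell in Ag+Costim, which is 0.482 and 0.832% against 0.217 and 0.339% of the 36848 transcripts of any type. Under the same minimums, protein-coding transcripts were called at 0.328 and 0.481% and retained-intron transcripts at 0.00994 and 0.0994%. The excess of falls rested on the setting, with 10 rises and 9 falls with lane as a term, 6 and 3 by limma, 6 and 5 within lane 2 and 15 and 13 without Ag+Costim 4. Of the called members 3 that rose and 8 that fell reached the 50-count minimum only through the group in which they were high, so that they had to differ once included, as had 30 of the 80 and 46 of the 125 called transcripts of any type. Of the 30 called members, 21 were at 0 in every library of 1 group, none had a count in all 10 libraries, and none separated the groups completely. In 65 of the 68 members called in any of the 3 comparisons the share was 0 in some library and 20% or more in another. The 2 libraries could be of the same group or of different groups. Across members the median difference was -0.152 points, with 1286 lower and 946 higher, beside a median of -0.186 over all transcripts tested. Without Ag 3 and Naive 5 there were 22 calls.

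Dennd1b-208, from a gene for a Rab GTPase exchange factor, was the largest fall. Its share was 58.0, 0, 66.2, 66.9 and 54.3% in Ag and 4.73, 0, 4.83, 0 and 3.76% in Ag+Costim, a difference of -46.4 points (edgeR usage test, adjusted p = 0.00822). In Naive it was 13.1, 8.70, 1.49, 45.7 and 40.4%. Of the Ag libraries, 4 stood above all Ag+Costim libraries and Ag 2 was at 0 with them. The transcript has 2917 bases that no other transcript of the gene holds, and the call held when each of the 10 libraries was left out in turn (adjusted p 0.00457 to 0.0409).

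Il4ra-205 carries an extra exon of 114 bases in the gene of the interleukin-4 receptor alpha chain, and it was close to absent after antigen alone. Its shares were 46.2, 0, 27.4, 30.9 and 29.1% in Naive, 0, 0, 0, 0.412 and 0.306% in Ag, and 44.9, 0, 0.363, 0 and 37.8% in Ag+Costim. Naive and Ag were separated but for Naive 2, while Ag+Costim fell into 2 libraries at the Naive level and 3 near 0. It rose in Ag+Costim against Ag (16.5 points, adjusted p = 0.00841), but without Ag+Costim 1 the difference was 9.39 points, under the 10-point limit.

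Vars2-208, an intron-extended transcript of the mitochondrial valyl-tRNA synthetase, had the same kind of pattern. It was 45.0, 2.23, 35.5, 0.750 and 43.4% in Naive, 0 in all 5 Ag libraries and 45.3, 0, 0, 40.8 and 0.350% in Ag+Costim. The Ag libraries held 1495 counts of the gene, so that a count of 0 allows a share of up to 0.201%. The rise in Ag+Costim against Ag was 17.3 points (adjusted p = 0.0176), and the adjusted p reached 0.0563 when 1 of Ag 1, 2, 4 or 5 was left out.

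The other falls named by size were Naa60-202 (-25.6 points), Capn15-208 (-21.9), Ankfy1-202 (-20.6), Parp6-208 (-19.1) and Arl15-203 (-19.0), with adjusted p from 0.0127 to 0.0477. The other rises were Mnat1-203 (26.3 points), Ttll5-209 (14.1), Abcc1-209 (12.7) and Aup1-208 (11.9). Of these, Ttll5-209 and Abcc1-209 met the count minimum through Ag+Costim alone, so their calls give no support of their own. The genes of these falls and rises have unrelated roles, from a Golgi acetyltransferase (Naa60) and a Rab5 effector (Ankfy1) to the assembly factor of the CDK-activating kinase (Mnat1) and a drug exporter (Abcc1). Ankfy1-202 rested on Ag 3, where it took 96.3% of the gene, while the rest of Ag had 0 to 3.93% and Ag+Costim 0. Without Ag 3 the difference was -1.62 points. Aup1-208 rested on Ag+Costim 3 and had a difference of 3.37 points without it, and Abcc1-209 and Ttll5-209 had a count in 1 of the 10 libraries only, Ag+Costim 5 and Ag+Costim 1, without which the difference was 0. Naa60-202, Capn15-208, Parp6-208, Arl15-203 and Mnat1-203 each lost the call when any of 6 or 7 libraries was left out.

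Complete separation of Ag+Costim from Ag was rare. Of the members tested, 5 were higher and 14 lower in all Ag+Costim libraries, which is 0.219 and 0.613% against 0.725 and 1.22% of all transcripts. Shares at or below the background are no result about the members, and none of these members was called. Examples picked after their values were seen are Syce2-201, from a synaptonemal complex gene, at 45.6, 54.2, 41.2, 40.5 and 52.7% in Ag and 7.99, 5.93, 6.19, 7.63 and 16.9% in Ag+Costim (adjusted p = 0.767), and Tbrg1-204 at 48.3, 17.1, 23.4, 30.8 and 14.5% in Ag and 13.8, 8.03, 10.3, 14.4 and 14.2% in Ag+Costim (adjusted p = 1). In Naive, Syce2-201 ranged from 0 to 46.6%, and its gene had as few as 57 counts in a library.

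As for the level of the transcript itself, no member was called in Ag+Costim against Ag by edgeR's quasi-likelihood test, nor was any of the 48929 transcripts fitted (0% higher and 0% lower). At an unadjusted p under 0.05 there were 295 members, and DESeq2 called 82 (27 higher, 55 lower). The matching shares of all transcripts were not counted, so these numbers are no result about the members. Among genes, 0.0288% were higher and 0.00576% lower, and 1 of the 1717 host genes was among them, or 231 without Ag 5 and 118 without Ag 2. None of the 30 members called by share lay in that gene.

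Ag was then set against Naive. Besides antigen, Ag cells differed by transfer into recipients, by the control IgG and by lane, and these cannot be told apart. Transfer also separates Ag+Costim from Naive. Here 9 members rose and 22 fell, 0.394 and 0.963% of those tested against 0.285 and 0.285% of all transcripts. Under the same minimums, 0.47 and 0.396% of protein-coding and 0.0298 and 0.0199% of retained-intron transcripts were called. Through the high group alone 5 of the 9 and 11 of the 22 had reached the 50-count minimum, among them Plcg1-208, Abhd12-204, Irf2-210, Trat1-201 and Cul4b-204 of those described below, and 41 and 47 of the 105 and 105 called transcripts of any type. These calls give no support of their own. Of the 31, 16 were at 0 throughout 1 group, 1 had a count in all 10 libraries and 3 separated the groups. Across all members the median was -0.328 points (all transcripts -0.0949), with 1355 lower and 896 higher. There were 20 calls without Naive 2, the lowest number when 1 library was left out, and 28 without Ag 3 and Naive 5. Complete separation was seen for 5 higher and 25 lower members, 0.219 and 1.09% against 0.402 and 0.7% of all transcripts.

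Trat1-201 separated Naive from Ag completely. The gene encodes a transmembrane adaptor of the T cell receptor complex, and the transcript was added to those named by rule after its values were seen. Its share was 21.1, 27.0, 19.8, 24.04 and 12.8% in Naive and 0 in all 10 Ag and Ag+Costim libraries, a difference of -20.9 points in either comparison. No Naive library overlapped the others. As the transcript met the count minimum through Naive alone, this is given as a description, with no test. The gene itself also fell, by 2.79 ± 0.57 and 3.98 ± 0.60 on the log2 scale (SE, adjusted p = 0.0152 and 0.00169), and its counts per library were 34 to 103 in Ag and 23 to 59 in Ag+Costim. Over those groups a count of 0 allows a share of up to 0.855 and 1.29%.

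Il4ra-205 fell by 26.6 points and Vars2-208 by 25.4 (adjusted p = 0.00295 and 0.00967), and both calls held without each library in turn. In Vars2-208 the groups separated, since the lowest Naive share was 0.750%. The Il4ra gene fell as well, by 1.52 ± 0.29 on the log2 scale (adjusted p = 0.0126).

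Other large falls were Mnat1-203 (-45.6 points), Cul4b-204 (-30.0), Gnl3-204 (-25.0) and Tarbp2-203 (-23.9). Gnl3-204, of the nucleolar GTPase nucleostemin, was 35.6, 23.0, 34.5, 36.6 and 17.7% in Naive and 22.7, 0, 0, 0 and 0% in Ag. All Naive libraries held it and 4 of 5 Ag libraries did not, with Ag 1 inside the Naive range. The adjusted p was 0.0465, and it was lost when any of 9 libraries was left out. Cul4b-204, of a ubiquitin ligase scaffold, was at 0 in all Ag and Ag+Costim libraries but also in Naive 3 and Naive 5, and Tarbp2-203, of a Dicer partner, lost its call without Ag 1, Ag 2 or Ag 5. Mnat1-203 lost it without any of 7 libraries.

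Among the rises, Gramd1a-206, of a cholesterol transport protein, was the only one of the 31 called members with a count in all 10 libraries. Its shares were 1.45, 8.35, 2.39, 1.17 and 2.67% in Naive, 26.3, 25.1, 6.32, 12.1 and 5.96% in Ag, and 11.1, 3.48, 13.6, 7.38 and 6.29% in Ag+Costim. Ag overlapped Naive only through Naive 2, and the difference was 11.9 points (adjusted p = 0.0484), which passed 0.05 when 6 of the 10 libraries were left out singly. Plcg1-208, from the gene of phospholipase C gamma 1, which relays T cell receptor signals, was 14.2, 0, 59.0, 0.0556 and 0% in Ag and under 0.4% in every Naive and Ag+Costim library. It rose against Naive by 14.5 points and was lower in Ag+Costim than in Ag by 14.6, calls of a transcript that met the count minimum through Ag alone, and without Ag 3 these were 3.46 and -3.52 points.

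Abhd12-204 (18.7 points), St7l-207 (16.3), H2-Eb1-205 (15.5) and Irf2-210 (14.8) were the other rises named by size, and each was at 0 in at least 4 Naive libraries. Abhd12-204 was found in Ag 4 alone among Ag libraries, and without it the difference was -0.0837 points. H2-Eb1-205 belongs to an MHC class II gene of antigen-presenting cells, and Irf2-210, of an interferon regulatory factor, had a difference of 8.09 points without Ag 4. H2-Eb1-205 lost its call without Ag 3 or Naive 2, and St7l-207 without any of 7 libraries. The part of B and myeloid cells, whose marker levels are given above, in H2-Eb1 was not tested.

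Papola-214, from the gene of the poly(A) polymerase, separated the groups without being called, and is given after its values were seen. It was 56.1, 63.1, 52.6, 63.4 and 71.0% in Naive, 51.6, 4.77, 47.8, 4.83 and 4.44% in Ag, and 52.6, 55.2, 2.21, 47.2 and 49.9% in Ag+Costim (adjusted p = 0.49 for Ag against Naive). Within both activated groups the libraries split between about 50% and under 5%.

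By level, no member was called in Ag against Naive by edgeR, with 0.00409% of all transcripts higher and 0.0184% lower. At an unadjusted p under 0.05 there were 308 members, and DESeq2 called 80 (26 higher, 54 lower). For these numbers too the shares of all transcripts were not counted, and they are no result about the members. Of the host genes, 54 were higher and 113 lower, beside 3.05 and 3.66% of all genes, and 4 of the 31 members called by share lay in such a gene. The number of host genes called depended on single libraries, from 32 without Naive 1 to 544 without Naive 5, and by level 8 members passed without Naive 5.

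Ag+Costim against Naive gave 11 rises and 22 falls, 0.482 and 0.963% of members against 0.285 and 0.445% of all transcripts. Protein-coding transcripts under the same minimums stood at 0.475 and 0.594%, near the members for rises, and retained-intron transcripts at 0.00994 and 0.189%. With lane as a term the split turned to 6 rises and 3 falls. Of the called members 3 that rose and 10 that fell, Trat1-201, Cul4b-204 and Gcfc2-206 among them, met the count minimum through the high group alone, as did 41 and 62 of the called transcripts of any type. Of these 33, 21 were at 0 throughout 1 group, 1 had a count in all 10 libraries and 5 separated the groups. Without Ag 3 and Naive 5 there were 48 calls. The median difference was -0.595 points for members, beside -0.289 for all transcripts, -1.005 for retained-intron and 0.544 for protein-coding transcripts under the same minimums. In all, 1482 members were lower and 779 higher. This comparison shares its Ag+Costim libraries with the first and its Naive libraries with the second, so the 3 are not independent of each other.

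Arhgap15-202 carries a separate exon in the gene of a Rac GTPase-activating protein. It was 64.4, 2.19, 48.7, 36.5 and 2.06% in Naive, 2.03, 2.25, 1.46, 51.3 and 1.02% in Ag, and 2.15, 2.27, 2.57, 0.963 and 1.58% in Ag+Costim. Every Ag+Costim library was at about 2%, a level that Naive 2, Naive 5 and 4 Ag libraries shared, and the difference from Naive was -28.8 points (adjusted p = 0.00383). The gene fell too, by 1.51 ± 0.31 on the log2 scale (adjusted p = 0.00495).

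Ahcyl1-203, of an inositol trisphosphate receptor-binding protein and chosen after its values were seen, was 16.1, 35.7, 2.50, 40.5 and 2.40% in Naive, 71.2, 0.337, 0.952, 5.42 and 0% in Ag and 0 in every Ag+Costim library. The Ag+Costim libraries held 3066 counts of the gene, which allows a share of up to 0.0978%. It fell by 19.4 points against Naive (adjusted p = 0.000173), with no overlap, and the call held without each library. Against Ag the difference was -15.6 points (adjusted p = 0.000387), or -1.68 without Ag 1.

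The remaining falls named by size were Naa60-202 (-32.9 points), Cul4b-204 (-30.0), Parp6-208 (-28.3), Ankfy1-202 (-26.7) and Gcfc2-206 (-21.4). Ankfy1-202 kept its call without each library, while the others lost it without any of 4 to 7. BC030867-202, outside the rule because its gene had few counts in Naive, went from 90.9 to 100% in Naive to at most 0.948% in Ag+Costim (adjusted p = 0.0255), and was lost without Ag+Costim 2, 3, 4 or 5.

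Coro1b-212, from a gene for an actin regulator of the coronin family, was a called rise in which the Ag+Costim libraries lay close together. Its share was 27.9, 28.6, 20.6, 25.3 and 30.0% there, 0, 0, 0, 12.2 and 0% in Naive, and 0, 0, 0, 0 and 31.5% in Ag. Ag+Costim and Naive did not overlap (24.1 points, adjusted p = 0.0185), and the adjusted p was up to 0.0706 without Naive 1, 2, 3 or 5. Against Ag the difference of 20.2 points did not pass (adjusted p = 0.71). Its gene rose by 0.46 ± 0.12 on the log2 scale (adjusted p = 0.0134).

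H2-T22-205, from a nonclassical MHC class I gene whose relatives are near-identical in sequence so that reads may be split between them, was 42.5, 37.3, 0, 30.1 and 17.9% in Ag+Costim, 0, 2.25, 0, 0 and 0% in Naive and 0, 0, 0, 0 and 5.75% in Ag. Only Ag+Costim 3 lay among the Naive values. The rise of 25.1 points (adjusted p = 0.0403) was lost without any of 8 libraries. The other rises were Mpp5-204 (34.4 points), Tubgcp3-203 (15.8), St7l-207 (15.4) and Trappc6a-206 (14.2). Mpp5-204, of a cell polarity scaffold, reached 83.3 and 85.8% in Ag+Costim 3 and 5 and was 0 to 3.79% in the other 3, and Trappc6a-206, of a vesicle tethering complex, was 22.7 to 24.3% in 3 Ag+Costim libraries and 0 in 2. Both kept their calls without each library, whereas Tubgcp3-203 had 9.24 points without Ag+Costim 5 and St7l-207 lost its call without any of 7.

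**Figure D2:**
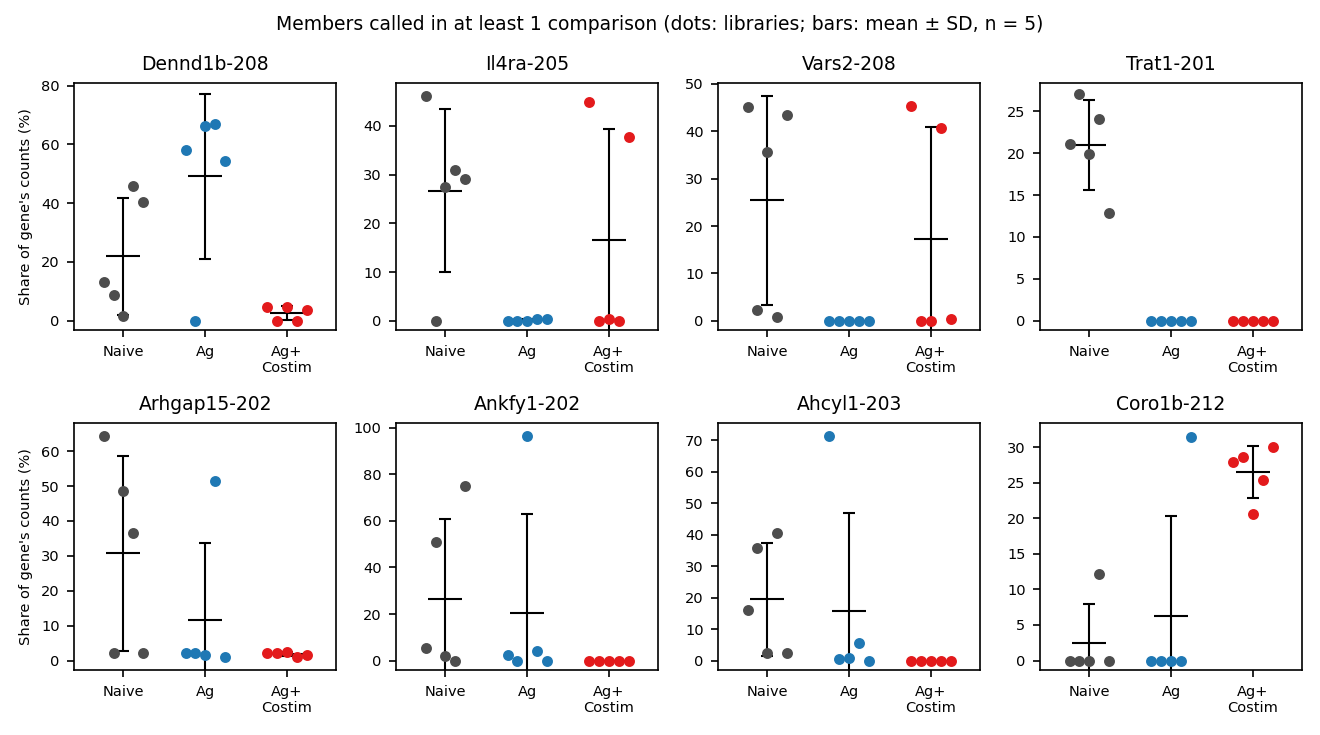
Share of the gene's estimated counts (%, vertical axis, own scale per panel) in each library for 8 members called in at least 1 comparison, with 1 dot per library and the mean ± SD of 5 libraries as bars. Trat1-201 is at 0 in all Ag and Ag+Costim libraries and Coro1b-212 at 20.6 to 30.0% in all Ag+Costim libraries, while in the other panels libraries of at least 1 group split between values near 0 and high values.

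Complete separation was seen for more members than were called in this comparison. Of members tested, 16 were higher and 147 lower in every Ag+Costim library than in every Naive library, 0.701 and 6.44% against 3.52 and 8.62% of all transcripts. Retained-intron transcripts stood at 0.577 and 20.3%. The members' percentages did not exceed the background in either direction and so are no result about the members. Lower shares outnumbered higher ones among retained-intron transcripts as well. Of the members without overlap, 43 were lower and 9 higher by 10 points or more.

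**Figure D3:**
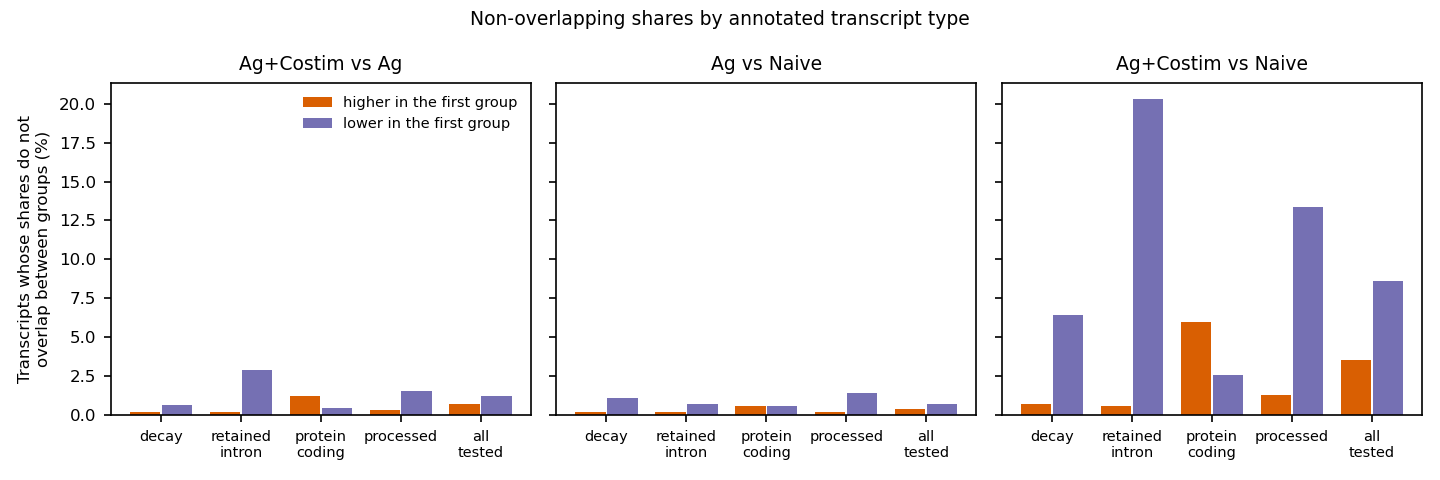
Percentage of transcripts (vertical axis) whose shares do not overlap between the 5 libraries of each of 2 groups, by annotated type and direction, for decay-annotated members, retained-intron, protein-coding and processed transcripts under the same minimums and all transcripts tested. In Ag+Costim against Naive, 6.44% of members and 20.3% of retained-intron transcripts were lower, and both were higher in under 1%.

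By the place of the stop, the median difference between Ag+Costim and Naive was -0.452 points for the 1171 members with a shifted frame, -0.660 for the 491 with a separate exon, -0.844 for the 364 with an exon extended into an intron and -1.71 for the 120 with the normal stop and a junction behind it. Lower shares without overlap were found for 43, 42, 40 and 16 of them, or 3.67, 8.55, 11.0 and 13.3%, beside 8.62% of all transcripts, so the first 2 classes did not exceed the background. The medians for Ag+Costim against Ag were 0, -0.180, -0.396 and -0.995. The order of these classes is a description and was not tested.

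At the level of the transcript, 5 of 2297 members rose and 34 fell in Ag+Costim against Naive by edgeR. Of all 48929 transcripts 804 rose and 1811 fell, or 1.64 and 3.7%. The members did not exceed this background in either direction, so these counts are no result about them. DESeq2 called 68 members higher and 192 lower, and its share over all transcripts was not counted. The count by edgeR depended on single libraries: it was 186 without Naive 5, and 0 or 1 without any other of the 10. Among the 34 were Rps19-205, Tbrg1-204, Ahcyl1-203 and Trat1-201, each of which kept this call only without Naive 5. As Trat1-201 met the count minimum through Naive alone, its fall gives no support of its own. How many more of the 34 met it in that way was not counted. Of the host genes, 451 rose and 433 fell, beside 21 and 23.6% of all genes, and 16 of the 33 members called by share lay in such a gene. The host genes called numbered 498 without Naive 4 and 511 without Naive 1.

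Genes for splicing regulators held many members. The list of SR proteins, their relatives and kinases had 33 genes, of which 23 had 42 members, and the list of hnRNPs and other splicing regulators had 53 genes, of which 21 had 42 members. None of these members was called by share in any comparison by edgeR's test. At an unadjusted p under 0.05 there were 8 of the SR list and 7 of the hnRNP list in Ag+Costim against Ag, 3 and 4 in Ag against Naive, and 7 and 6 in Ag+Costim against Naive. Here and for the lists below, the share of all features at this limit was not counted. Such numbers are therefore no result about a list. The alternative usage test of limma called 1 of them, Tardbp-230, in the last comparison. Against Naive 30 of 42 and 29 of 42 were lower in Ag+Costim, with medians of -0.427 and -0.261 points, beside 1482 of 2284 for all members. Without overlap 4 and 3 were lower and none higher, or 9.52 and 7.14% beside 8.62% of all transcripts, which is near the background and no result about the lists. Among them were Srrm2-203 and Rbm39-219 of the SR list with differences of -0.149 and -0.0931 points. Against Ag the medians were -0.0124 and -0.0188, with 21 and 23 of 42 lower.

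Srsf3-201 includes the poison exon whose start is printed above. Its share was 48.9, 53.4, 57.9, 46.2 and 40.7% in Naive, 53.1, 36.6, 26.1, 52.7 and 37.2% in Ag, and 49.4, 41.3, 35.1, 34.5 and 49.4% in Ag+Costim. The 3 groups overlapped widely, with means of 49.4 ± 6.59, 41.1 ± 11.6 and 41.9 ± 7.31% (SD, n = 5). The transcript has neither bases nor a junction of its own among the gene's annotated transcripts, so its share was inferred from shared reads. The Srsf3 gene rose by 0.76 ± 0.25 on the log2 scale in Ag+Costim against Naive (adjusted p = 0.0284).

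Srsf7-203 was 44.0, 30.8, 40.3, 30.1 and 10.4% in Naive, 26.4, 20.5, 15.4, 23.0 and 8.36% in Ag, and 18.2, 17.8, 22.5, 17.3 and 14.9% in Ag+Costim. Naive 1 to 4 lay above all other libraries and Naive 5 below most, so the groups overlapped (-13.0 points for Ag+Costim against Naive, adjusted p = 0.791). Clk1-210, of a kinase that phosphorylates SR proteins, was 29.5, 29.2, 25.9, 23.4 and 35.7% in Naive and 20.5, 19.4, 0, 19.1 and 11.4% in Ag, with no overlap between them, and 25.7, 14.7, 8.24, 22.2 and 29.5% in Ag+Costim. Its difference of -14.7 points between Ag and Naive was not called (adjusted p = 1). The fourth member of the list by counts, Rbm39-225, overlapped in every comparison, at 3.66 to 27.7% over all libraries.

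The Tra2 genes, which encode partners of SR proteins, were looked at after their values were seen. Tra2b-206 was 37.7, 17.2, 20.6, 16.9 and 21.9% in Naive, 27.8, 24.5, 0, 13.4 and 8.76% in Ag, and 8.42, 8.95, 16.7, 5.87 and 15.2% in Ag+Costim. Tra2a-202 was 11.4, 8.18, 6.499, 6.05 and 9.86% in Naive, 3.62, 2.88, 4.26, 10.04 and 2.34% in Ag, and 2.25, 0.799, 1.01, 3.98 and 2.70% in Ag+Costim. In both, every Ag+Costim library was below every Naive library, by narrow gaps in Tra2b-206 (16.7 against 16.9%), and neither passed the test (adjusted p = 0.667 and 0.857). The Tra2b gene rose by 1.04 ± 0.15 on the log2 scale in Ag+Costim against Naive (adjusted p = 0.00162), and Tra2a was 0.08 ± 0.18 higher (adjusted p = 0.736). Srsf2-202, of another SR protein, was at most 0.461% in Ag+Costim and 0.312 to 13.8% in Naive, so that they overlapped only through Naive 2, and its usage passed an adjusted p of 0.0205 with a difference of -4.67 points, under the 10-point limit.

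In the hnRNP list, the 4 members with the most counts were Rbm5-210, Hnrnpll-203, Hnrnpa2b1-209 and Hnrnpu-206. Hnrnpll-203, from the gene of a factor that controls CD45 splicing in T cells, was 66.1, 0.462, 74.8, 67.6 and 75.7% in Naive, 61.4, 75.7, 0.803, 71.0 and 82.4% in Ag, and 83.0, 45.5, 81.0, 0.168 and 47.1% in Ag+Costim. Each group had 1 library under 1% and 4 at 45.5% or more, and the groups did not differ beyond this spread. Hnrnpa2b1-209 was 2.88 to 7.23% in Naive and 1.84 to 2.65% in Ag+Costim, with no overlap and a difference of -2.69 points (adjusted p = 0.629). Fubp1-203 and Cirbp-201, the other members of the list without overlap and picked for that, differed by -2.87 and -2.13 points (adjusted p = 0.907 and 0.417). Rbm5-210 was 30.8 to 38.5% in Naive and 14.99 to 60.7% in Ag+Costim, and Hnrnpu-206 was at 0 in 11 libraries. Tardbp-230, from the gene of the RNA-binding protein TDP-43 and added because limma called it, was 19.6, 0, 12.5, 0 and 0% in Naive, 0, 28.4, 0, 16.1 and 13.3% in Ag, and 23.1, 11.3, 24.6, 13.6 and 13.8% in Ag+Costim. All Ag+Costim libraries held it while 3 Naive and 2 Ag libraries did not, and the ranges overlapped. The difference of 10.9 points from Naive had an adjusted p of 0.748 by edgeR and 0.000782 by limma.

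Rbmx, which encodes hnRNP G, and Khdrbs1, which encodes the signal-dependent splicing regulator Sam68, were in neither list, and their members were picked after their values were seen. Rbmx-205 was 50.5, 42.4, 54.6, 61.7 and 36.5% in Naive, 46.7, 14.7, 28.4, 47.9 and 19.7% in Ag, and 27.6, 21.7, 20.6, 16.4 and 12.8% in Ag+Costim. Khdrbs1-202 was 10.5, 17.5, 24.7, 15.4 and 6.69% in Naive, 14.4, 8.25, 2.72, 8.21 and 12.6% in Ag, and 4.06, 3.35, 3.59, 3.70 and 5.43% in Ag+Costim. Ag lay between the other groups and overlapped both in each. The differences from Naive were -29.3 and -11.0 points in Ag+Costim, with no overlap and an adjusted p of 0.825 and 0.352 by edgeR (0.0980 and 0.00806 by limma). The transcripts have 1121 and 662 bases that no other transcript of the gene holds.

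Ddx5-208, whose exon runs on over 1550 bases including an intron of the helicase gene, was 57.2, 50.5, 47.4, 59.5 and 44.4% in Naive, 55.0, 28.9, 33.1, 38.1 and 23.8% in Ag, and 39.7, 42.2, 20.8, 29.1 and 31.7% in Ag+Costim. Ag+Costim and Naive did not overlap (-19.1 points, adjusted p = 0.861 by edgeR and 0.00174 by limma), and Ag 1 lay among the Naive libraries. The gene fell by 0.73 ± 0.18 on the log2 scale (adjusted p = 0.0106).

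**Figure D4:**
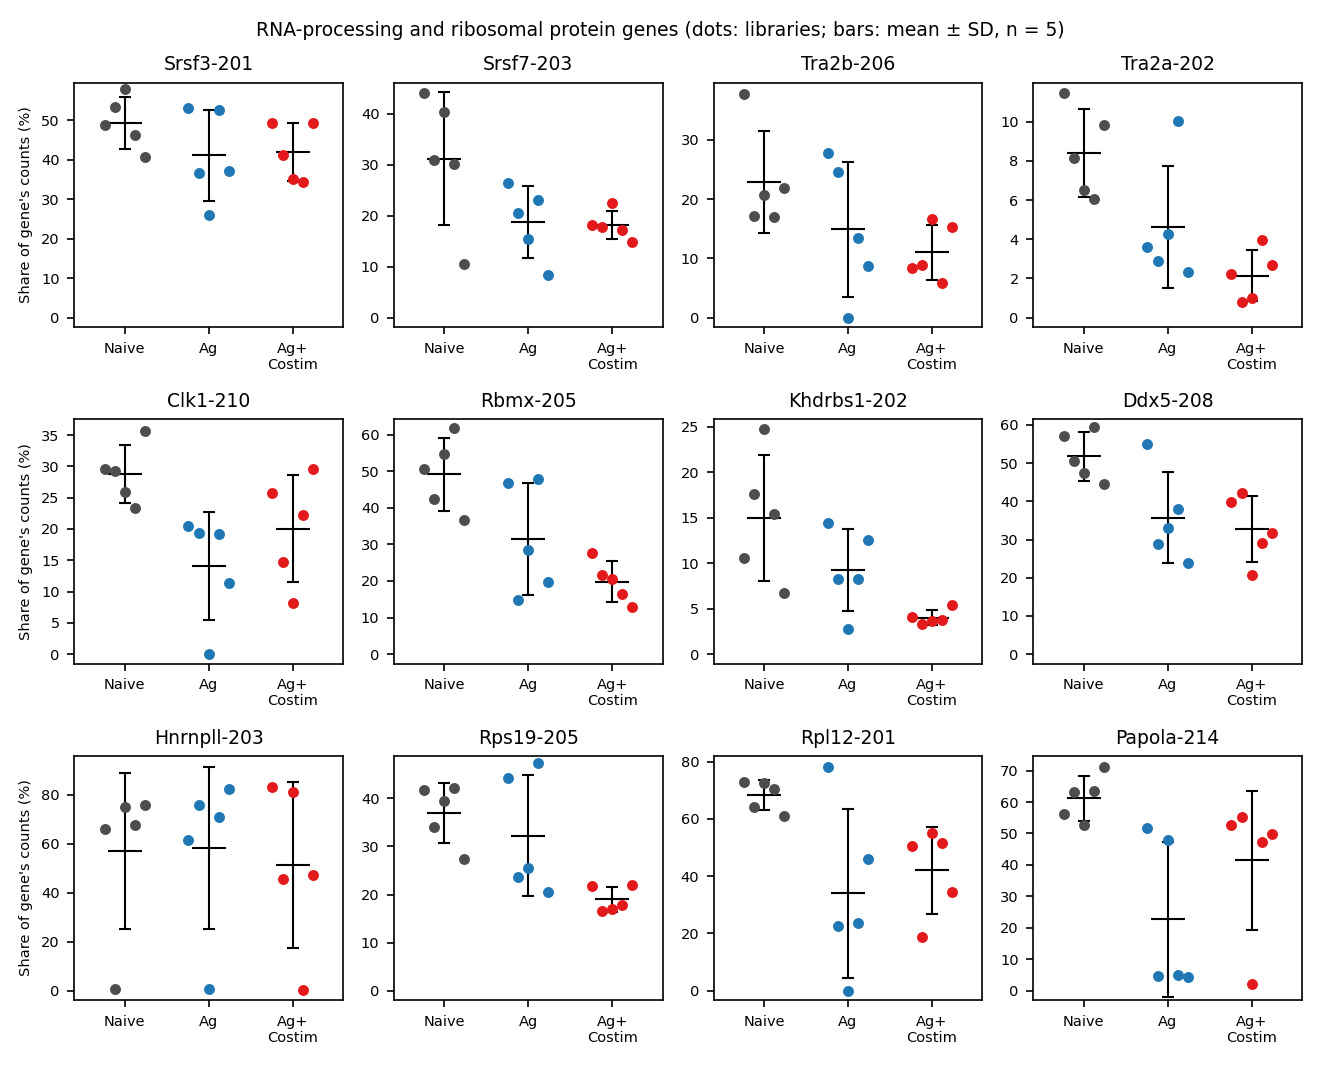
Share of the gene's estimated counts (%, vertical axis, own scale per panel) in each library for 12 members from genes of splicing regulators, ribosomal proteins and the poly(A) polymerase, with 1 dot per library and the mean ± SD of 5 libraries as bars. In Tra2b-206, Tra2a-202, Rbmx-205, Khdrbs1-202, Ddx5-208, Rps19-205 and Rpl12-201 all Ag+Costim libraries lie below all Naive libraries, Hnrnpll-203 has 1 library under 1% in each group, and Papola-214 splits within Ag and Ag+Costim.

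Core spliceosome genes had 20 members in 15 of 65 genes. Of these, 17 were lower in Ag and 17 in Ag+Costim than in Naive, with medians of -0.89 and -1.04 points, but none was without overlap. By edgeR 1 was called, Dhx16-207, of a spliceosomal helicase, which fell by 21.4 points in Ag against Naive (adjusted p = 0.0151). That is 5.0% of the list beside 0.285% of all transcripts, and with 1 call it is no result about the list. At an unadjusted p under 0.05 there were 4, 3 and 4 of the 20 in Ag+Costim against Ag, Ag against Naive and Ag+Costim against Naive, and limma called none. Cytosolic ribosomal protein genes had 18 members in 14 of 80 genes, none called by edgeR, with medians of -0.95 and -0.53 points. At an unadjusted p under 0.05 there were 4, 3 and 4 of the 18 in the same order, and limma called Rpl12-201 in Ag against Naive (adjusted p = 0.0384 by limma). The members of this list whose Ag+Costim and Naive shares did not overlap were Rps19-205, among the 10 with most counts, and Rpl12-201, picked after its values were seen.

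Rps19-205 carries a separate exon of 81 bases. It was 41.8, 34.1, 39.5, 42.1 and 27.4% in Naive, 44.3, 23.7, 25.5, 47.3 and 20.5% in Ag, and 21.8, 16.6, 16.9, 17.8 and 21.9% in Ag+Costim. Naive and Ag+Costim did not overlap, and the difference of -18.0 points did not pass by share (adjusted p = 0.636). By level the transcript fell by 1.34 ± 0.27 and the gene by 0.58 ± 0.14 on the log2 scale (edgeR, adjusted p = 0.032 and 0.00952), where the transcript's adjusted p was up to 0.0919 without any 1 of 9 libraries. Rpl12-201 was 72.8, 64.2, 72.6, 70.6 and 61.2% in Naive, 78.1, 22.6, 0, 23.8 and 45.9% in Ag, and 50.4, 18.8, 55.0, 51.6 and 34.5% in Ag+Costim. Its Ag+Costim libraries were all below Naive (-26.2 points, adjusted p = 0.89), while Ag spanned from 0 to above Naive.

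Genes of T cell signalling and effector function had 14 members in 11 of 102 genes, and the median was -1.06 points in Ag+Costim against Ag, 1.20 in Ag against Naive and -0.16 in Ag+Costim against Naive. Plcg1-208 was the only one called by edgeR, in the first and second of these, and limma called Itgb1-202 and Ptpn22-204 in the third. The edgeR call is 7.14% of the list, beside 0.339% of all transcripts lower in the first and 0.285% higher in the second. As Plcg1-208 met the count minimum through Ag alone, it is no result about the list. The 4 with the most counts were Itgb1-202, Ptpn22-204, Ifngr1-203 and Dgka-203. Itgb1-202, of the integrin beta 1 chain, was 0, 0, 2.98, 0 and 3.29% in Naive, 7.99, 10.2, 0, 0 and 9.52% in Ag, and 9.86, 18.6, 13.6, 15.9 and 7.34% in Ag+Costim. Ag+Costim and Naive did not overlap (11.8 points, adjusted p = 0.461 by edgeR and 0.0303 by limma), and without Naive 5 the edgeR value was 0.0441. Ptpn22-204, of a phosphatase that restrains receptor signalling, ranged from 7.98 to 32.6% in Naive, 12.4 to 50.9% in Ag and 13.2 to 49.8% in Ag+Costim (adjusted p = 0.801 against Naive by edgeR and 0.0129 by limma), and Ifngr1-203, of the interferon gamma receptor, from 10.4 to 22.9, 15.1 to 31.4 and 17.4 to 32.8%. Dgka-203, of a lipid kinase linked to T cell anergy, ranged from 1.71 to 16.2% over all libraries, and these 3 overlapped between all groups.

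Pfn1-204 was among the 10 members with the most counts. Its share was 12.4, 12.7, 14.7, 11.5 and 11.9% in Naive, 0, 0.0578, 0.320, 16.7 and 0.0845% in Ag, and 5.46, 0.0934, 0.0605, 0.0479 and 0.106% in Ag+Costim. All Naive libraries lay above all Ag+Costim libraries, and Ag 4 alone among Ag was at the Naive level. The difference of Ag+Costim from Naive was -11.5 points with an adjusted p of 0.069, which was 0.00024 without Ag+Costim 1. Spn-202, of the T cell surface sialoglycoprotein CD43 and chosen after its values were seen, keeps the normal stop with a junction behind it. It was 25.5, 26.9, 19.5, 27.3 and 13.1% in Naive, 21.4, 16.4, 0, 16.9 and 11.9% in Ag, and 8.88, 8.96, 0, 8.84 and 8.79% in Ag+Costim (-15.4 points, adjusted p = 0.382). No Ag+Costim library reached the lowest Naive library.

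Shares that were higher in Ag+Costim than in Naive without overlap included Commd8-205 at 16.1, 15.8, 13.8, 14.8 and 21.1% in Naive and 26.7, 27.4, 31.5, 35.3 and 27.8% in Ag+Costim, and N4bp2l1-202 at 12.2, 19.9, 17.6, 19.5 and 13.8% against 41.6, 39.0, 34.3, 34.2 and 49.1%, both picked after their values were seen. In Ag they ranged from 14.2 to 47.1% and from 12.2 to 49.9%, across both other groups. The differences of 13.4 and 23.0 points were not called (adjusted p = 0.833 and 0.911). Cenpk-205, of a kinetochore gene, was 74.3 to 86.4% in Ag+Costim and 11.7 to 73.8% in Naive, and Cenpa-202 was 20.8, 51.8, 50, 20.1 and 44.3% in Naive, 46.3, 62.8, 36.2, 50.6 and 45.3% in Ag and 53.4, 37.5, 64.5, 60.8 and 61.6% in Ag+Costim, which overlapped. The Cenpa gene rose by 1.85 ± 0.52 on the log2 scale in Ag+Costim against Naive (adjusted p = 0.0164).

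Kif21b-204, of a kinesin gene and picked after its values were seen, showed how far a share could switch without a call. It was 93.0 to 94.5% in all 5 Ag libraries, 0 to 0.101% in 4 Naive libraries and 91.8% in Naive 2, and 0 in 4 Ag+Costim libraries and 97.5% in Ag+Costim 3. The difference of 75.3 points between Ag and Naive had an adjusted p of 1, or 0.00249 without Naive 2.

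The genes of the decay machinery were measured as a list of 30. In Ag+Costim against Ag none was called by edgeR or DESeq2, 7 had an unadjusted p under 0.05, and 4 passed in edgeR without Ag 5. In Ag against Naive none rose and 3 fell, beside 3.05 and 3.66% of all genes, among them Casc3, of the exon junction complex, by 0.70 ± 0.13 and Smg5 by 0.84 ± 0.20 on the log2 scale (SE, adjusted p = 0.0106 and 0.0256). From 1 to 6 passed when 1 library was left out, 6 without Naive 5 or Ag 4 and 1 without Naive 1, 3 or 4 or Ag 5, and none passed with lane as a term. Of the 3, Casc3 was also called in Ag+Costim against Naive (fell by 0.50 ± 0.12, adjusted p = 0.0105).

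In Ag+Costim against Naive 10 of the 30 rose and 7 fell, at a background of 21 and 23.6% of all genes. The rises included several subunits of the exon junction complex, of which Casc3 is another and fell, namely Eif4a3 (0.85 ± 0.27), Rbm8a (0.67 ± 0.24), Magoh (0.92 ± 0.32) and Magohb (1.11 ± 0.43), its splicing partner Rnps1 (0.64 ± 0.20), the cap-binding Ncbp1 (0.72 ± 0.22), the termination factor Etf1 (1.06 ± 0.27), the ATPases Ruvbl1 (0.90 ± 0.27) and Ruvbl2 (1.07 ± 0.30) and the decapping enzyme Dcp2 (0.40 ± 0.14, all log2 ± SE, adjusted p 0.0116 to 0.0467). The falls were Smg1, the kinase of UPF1 (-1.39 ± 0.36), Upf2 (-0.84 ± 0.27), the endonuclease Smg6 (-0.72 ± 0.21), Dcp1a (-0.60 ± 0.21), Secisbp2 (-0.59 ± 0.17), Smg9 (-0.58 ± 0.16) and Casc3, with adjusted p from 0.0105 to 0.0319. Upf1 itself was 0.09 ± 0.24 higher (adjusted p = 0.768). With lane as a term in the model none of the 17 passed, and 6 to 21 passed when 1 library was left out, 6 without Naive 1 or Naive 4 and 11 without Ag+Costim 4.

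**Figure D5:**
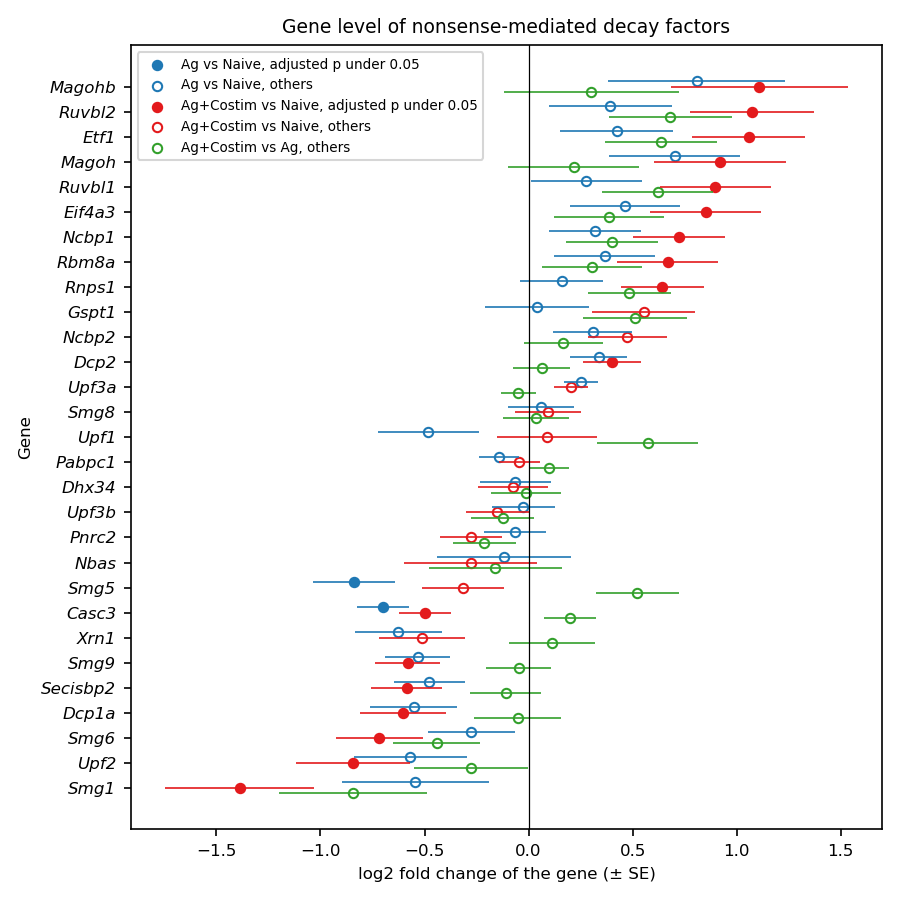
Log2 fold change of decay factor genes (horizontal axis, bars ± SE from edgeR) in 3 comparisons, ordered by Ag+Costim against Naive, with filled symbols at an adjusted p under 0.05. The filled Ag+Costim against Naive symbols run from -1.39 (Smg1) to 1.11 (Magohb), Ag against Naive has filled symbols for Casc3 and Smg5, and Ag+Costim against Ag has none.

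Members within these genes were few. Magohb-202 appeared in 2 libraries (37.3% in Ag 2 and 35.1% in Ag+Costim 4), Dcp1a-209 in 2 (21.3% in Naive 4 and 20.7% in Ag 5), and Smg5-202 ranged from 0 to 3.40% over all libraries. None was called in any comparison by edgeR or limma, with 1, 1 and 2 of the 3 at an unadjusted p under 0.05 in Ag+Costim against Ag, Ag against Naive and Ag+Costim against Naive.

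A list of 26 genes whose normal message is known as a decay substrate, among them stress genes with upstream reading frames and small nucleolar RNA hosts, had 24 genes tested. In Ag+Costim against Ag none was called by edgeR, 4 had an unadjusted p under 0.05, and DESeq2 called 1. Without Ag 5 edgeR called 4. In Ag against Naive the small nucleolar RNA host Snhg15 fell by 1.33 ± 0.23 and Smg5 as above (adjusted p = 0.00895 for Snhg15), with 1 to 7 of the list passing when 1 library was left out, 7 without Naive 5 and 1 without Naive 1. In Ag+Costim against Naive 4 rose and 8 fell, at the same background of 21 and 23.6%. The falls were Ddit3, which encodes the stress factor CHOP, by 1.44 ± 0.31, Gadd45a by 1.75 ± 0.36, Map3k14, the NF-kappaB inducing kinase, by 1.73 ± 0.40, Snhg12 by 1.36 ± 0.33, Snhg15 by 1.23 ± 0.23, Gas5 by 0.61 ± 0.21, Snhg8 by 0.41 ± 0.16 and Upf2 as above. The rises were Asns, the asparagine synthetase (2.28 ± 0.86), Carhsp1 (1.69 ± 0.46), Tbl2 (0.85 ± 0.32) and Gadd45b (0.70 ± 0.25). Members of the list moved in both directions, and 1 of the list passed with lane as a term, against 6 without Naive 1, Naive 4, Ag+Costim 3 or Ag+Costim 4.

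At the edge of the rule, Bin3-205, Camk2d-210 and Cluap1-204 had 50 counts over 15 libraries and were included, with mean shares of 0.0984 to 1.91% per group. U2af1-209, Ufd1-203 and Zfp1-204 had 49 and were not, with mean shares of 0.122 to 7.12%. A total of 355 members reached the count minimum only through 1 group, with fewer than 50 counts in the other groups together. Of these, 220 did so through Naive, 66 through Ag and 69 through Ag+Costim. They also entered the summed shares, the medians and the counts of lower and higher members given above.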

How the data were processed

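Bulk RNA sequencing of CD8+ T cells gave 5 libraries in each of Naive, Ag and Ag+Costim, made with a SMART-Seq v4 and Nextera XT workflow, and groups and replicate numbers were taken from the labels. According to the submitters' processing notes, the authors used HISAT2 2.1.0, SAMtools 1.9, StringTie 2.1.0, R 4.0.5 and DESeq2 1.30.1 with the genome build mm10. The authors deposited estimated counts per gene and per transcript, which StringTie infers by dividing reads among overlapping transcripts, and a deposited sequencing summary gave total reads as a count and alignment, complexity and RiP values in percent. A deposited FPKM table and a table of sample information were not used here, and 0 columns of per-sample values were left out of the tables used.

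The estimated counts were whole numbers as deposited and were used unchanged. Of 168207 transcript entries, 141862 matched GENCODE M21 by identifier and the other 26345 held 0.0818% of the counts. All 55536 matched genes equalled the sum of their transcripts. Transcripts with 50 or more counts in all (48929) were fitted with edgeR 4.0.16 (TMM scaling, robust quasi-likelihood, 1 coefficient per group over all 15 libraries). Usage of each of 36848 transcripts in 9150 genes was tested against the rest of its gene, and the level of transcripts and of 17366 genes with the quasi-likelihood F test, all two-sided with Benjamini-Hochberg adjustment over all features tested. The study's usage tool was not used here. A usage call needed an adjusted p under 0.05 and a change of 10 points in the mean share, and 13 of 2297 members had no other fitted transcript in their gene. Limma 3.58.1 and DESeq2 1.42.0 were alternatives, run in R 4.3.3, with tables made in Python 3.11.15 (pandas 2.3.3, matplotlib 3.10.9). The scripts were tested on simulated counts that varied less between libraries than these data and held no transcripts switching between 0 and high shares. That test therefore does not vouch for the calls reported here. The annotated stop and sequence of each member came from GENCODE M21, which uses GRCm38, the same assembly as mm10.

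Named by rule were up to 6 called members per direction and comparison with a gene mean of 100 counts in both groups, the 10 members with the highest share and the 10 with the most counts, the 4 with the most counts in each of the lists of SR proteins, hnRNPs, decay factors and T cell genes with any called, and 3 members on each side of the count minimum. A few genes and transcripts that these rules would name are not reported here. Members named beyond this were picked after their values were seen. The members, gene lists and tests were chosen with earlier results of these data known. Total counts per library are given with the results. Over the 630 printed shares the 95% Wilson interval reached a median of 1.13 points and at most 10.7 points to either side of its middle, and a count of 0 was taken to allow 3 counts. Intervals and floors cover counting error only, not the division of reads among transcripts. No pair of libraries agreed within sampling noise (the smallest chi-square per degree of freedom was 5.62).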

Additional observations from a re-analysis of the deposited data

Results flagged for a closer look

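Among 141 sets of 5 libraries, which covered 42 printed members, the total counts, the summed shares with and without Lars2, the retained-intron share and the RiP percentage in each of the 3 groups, 25 had 1 library so far from the next one, as a part of the whole range of the group, that it exceeded Dixon's 95% critical value for 5 samples (0.71). Chance gives about 1 in 20. The 25 came from the total counts and 19 of the 42 members.

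By total counts Naive 3 stood above the other Naive libraries, at 25280667. In the members of splicing regulators, Tra2b-206 was high in Naive 1 (37.7%), Tra2a-202 in Ag 4 (10.04%) and Srsf2-202 in Ag+Costim 3 (0.461%), while Hnrnpll-203 was low in Naive 2 (0.462%) and Ag 3 (0.803%). Papola-214 was low in Ag+Costim 3 (2.21%).

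Members of T cell and signalling genes with a library apart were Pfn1-204 in Ag 4 (16.7%) and Ag+Costim 1 (5.46%), Plcg1-208 in Ag 3 (59.0%) and Ag+Costim 3 (0.212%), Coro1b-212 in Naive 4 (12.2%) and Ag 5 (31.5%), H2-T22-205 in Naive 2 (2.25%) and Ag 5 (5.75%), Arhgap15-202 in Ag 4 (51.3%) and Spn-202 in Ag+Costim 3 (0%).

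The rest were Lars2-209 in Naive 3 (96.9%), Dennd1b-208 in Ag 2 (0%), Naa60-202 in Ag+Costim 4 (0.279%), Ankfy1-202 in Ag 3 (96.3%), Syce2-201 in Ag+Costim 5 (16.9%), Gnl3-204 in Ag 1 (22.7%), Gramd1a-206 in Naive 2 (8.35%) and Ahcyl1-203 in Ag 1 (71.2%). Ag 3, the library with the fewest counts, was the one that stood apart in 3 of the 25.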

How the results depend on the processing

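The summed share of members kept its direction under every alternative tried, though all used members chosen by counts summed over every library. Of the members, 220 met the count minimum only through Naive, 66 only through Ag and 69 only through Ag+Costim. No alternative was made to leave these out. A lower share outside Naive can thus in part be built in by the choice, and the kept direction gives no support of its own. Its differences of -0.842 (Ag+Costim against Ag), -2.61 (Ag against Naive) and -3.45 points (Ag+Costim against Naive) ranged from -1.195 to -0.470, -3.42 to -1.77 and -4.26 to -2.61 when 1 library was left out, and were -0.599 within lane 2 and -3.82 within lane 3. For Ag against Naive no value within a lane could be had, since they never shared one. Without Lars2, an alternative chosen after seeing the data, the differences were -0.979, -1.98 and -2.96 points.

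Counts of calls moved more, and the causes were not tested. By usage, Ag+Costim against Ag had 30 calls, 7 with the stricter filter filterByExpr, 19 with lane as a term, 9 with limma, 11 within lane 2, 46 at a limit of 5 points and 23 to 35 without 1 library. Ag against Naive had 31, 48 without a count filter, 7 with filterByExpr, 12 with lane, 18 with limma, 54 at 5 points and 20 to 32 without 1 library. Ag+Costim against Naive had 33, 12 with filterByExpr, 9 with lane, 69 with limma, 57 at 5 points and 22 to 42 without 1 library. By level, the 0 calls of Ag+Costim against Ag were 82 with DESeq2 and 0 to 0 without 1 library. The 0 calls of Ag against Naive were 80 with DESeq2, 8 without Ag 3 and Naive 5, and 0 to 8. The 39 of Ag+Costim against Naive were 260 with DESeq2, 1 without a count filter, 94 with filterByExpr, 0 with lane, 187 without Ag 3 and Naive 5, 226 from the 10 libraries alone, 2 within lane 3, and 0 to 186.

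Host genes called numbered 1 in Ag+Costim against Ag (190 with DESeq2, 2 with RLE scaling, 0 without a filter, 0 with lane, 0 to 231 without 1 library), 167 in Ag against Naive (376 with DESeq2, 20 without a filter, 0 with lane, 32 to 544) and 884 in Ag+Costim against Naive (415 without a filter, 123 with lane, 498 to 1034). Decay factors numbered 0 (0 to 4 without 1 library), 3 (6 with DESeq2, 0 without a filter, 0 with lane, 1 to 6) and 17 (9 without a filter, 0 with lane, 6 to 21). Decay targets numbered 0 (1 with DESeq2, 0 to 4), 2 (7 with DESeq2, 1 without a filter, 0 with lane, 1 to 7) and 12 (1 with lane, 6 to 13). Without Ag 3 and Naive 5, chosen after seeing the data for gene levels, host genes called were 96, 457 and 1057 in the 3 comparisons, decay factors 1, 7 and 21 and decay targets 2, 6 and 14.

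Replicate numbers are shared by the groups, but of 15 same-number pairs 6 had deviations correlated above 0.1 (range -0.344 to 0.575), so the numbers do not pair the libraries. With a replicate block usage calls were 6 (3 higher, 3 lower), 11 and 19 in the 3 comparisons, host genes called were 0 in Ag+Costim against Ag, and decay targets were 6 in Ag against Naive.

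Of the 44 called values of named members, 44 stayed past the threshold with shares per base, 43 with RLE scaling, 42 without a filter, 34 from the 10 libraries alone, 30 without Ag 3 and Naive 5, 15 of 25 with filterByExpr, 14 with the replicate block, 10 with lane as a term, 4 with limma, 1 of 14 within lane 2 and 4 of 16 within lane 3, and 10 stayed there without each library in turn. Some of the 44 were calls of members that met the count minimum through the high group alone. Keeping such a call gives no support of its own, and how many of the 44 were of this kind was not counted. Trat1-201 is such a member, and its calls in Ag against Naive and in Ag+Costim against Naive are among the 10. Abhd12-204, another such member, turned to -0.0837 points in Ag against Naive without Ag 4. The 25 named values not called gave 508 results under alternatives that stayed there and 14 that passed. The lowest library depth, 4865952 counts in Ag 3, and the division of shared reads among transcripts limit what a share can show.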
